A study of Homo sapiens with 8 samples.

Results

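The ERK pathway feedback and output genes are 10 genes that cells switch on when the kinase ERK is active, and they were followed in IGR-N91, a human stage 4 neuroblastoma (NB) cell line, by RNA sequencing. The members were taken by name: the rows of the deposited count table whose Ensembl identifier maps to DUSP4, DUSP5, DUSP6, SPRY1, SPRY2, SPRY4, ETV4, ETV5, EGR1 or PHLDA1, that is 10 of 60676 identifiers. All 10 passed the filter on low counts, which left 16680 genes to test. The cells were grown as aggregates in hanging drops, and each of 4 groups had 2 libraries. The control group was kept in medium without ganglia, and the others in medium conditioned by ganglia of embryonic day 8 chick embryos (sympathetic, E8-cSGcm, or dorsal root, E8-cDRGcm) or by sympathetic ganglia of E15.5 mouse embryos (E15.5-mSGcm). Aggregates were exposed for 20 h per the labels or 24 h per the design text, and every group used the same cell line. The study's aggregation assays used fluorescent cells, and its methods do not say whether the sequenced cells were. Ganglia of many embryos were pooled for a medium, so that a medium is not a single animal. The 2 libraries of a group are described as duplicates, and the methods speak of distinct samples without saying whether these were separate cultures, so that p-values measure only the spread between these libraries, which may be technical.

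ERK is the last kinase of the cascade that runs from receptor tyrosine kinases through RAS, RAF and MEK. Active ERK induces its own brakes: DUSP4, DUSP5 and DUSP6 are phosphatases that remove the activating phosphates from ERK, and the Sprouty proteins SPRY1, SPRY2 and SPRY4 restrain the cascade between the receptor and RAF. ETV4 and ETV5 are ETS family transcription factors whose transcription follows FGF and ERK signaling, EGR1 is an immediate-early zinc finger transcription factor, and PHLDA1 is a pleckstrin homology-like domain protein. Transcript levels of such genes are widely used as a readout of the pathway, and neuroblastomas with RAS or ALK mutations are known for pathway activity.

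Total counts per library ranged from 7930765 to 15060744, and both E15.5-mSGcm libraries were the shallowest. A count of 3, taken as the floor of a library, corresponded to 0.199 to 0.378 CPM, the count relative to library size, and this covers counting error only. All other CPM values were scaled by TMM, the trimmed mean of M values, which corrects for differences in library composition. All 8 noradrenergic NB markers examined, HAND1 and HAND2 among them, had counts in every group. Their summed level was 5950 to 6030 CPM in control, 4370 to 4650 in E8-cSGcm, 3510 to 3630 in E8-cDRGcm and 3510 to 3670 in E15.5-mSGcm. MYCN alone held 69.3% to 77.6% of it, so that the sum mostly follows this gene. Of the 8 genes, 3, 5 and 4 were called lower and 0 higher in E8-cSGcm, E8-cDRGcm and E15.5-mSGcm. Of 6 Schwann cell and glia markers, SOX10 and FABP7 were at 0 in all libraries, and the list summed to 1.12 to 4.1 CPM. The 5 sensory neuron markers summed to 2.69 to 9.45 CPM with SCN10A at 0, the 5 macrophage markers to at most 1.79 CPM, and the 4 endothelial markers matched of 5 to at most 1.61 CPM. The 6 fibroblast markers summed to 158 to 175 CPM in control, 212 to 223 in E8-cSGcm, 194 to 200.0 in E8-cDRGcm and 162 to 174 in E15.5-mSGcm. In each library 1 gene held 56.9% to 75.6% of this sum, which hides opposite changes. Called higher were 0, 0 and 4 of the 6 in E8-cSGcm, E8-cDRGcm and E15.5-mSGcm, and called lower 0, 1 and 1. The part of these shifts in the results was not tested, and fewer cells of a type and less RNA per cell cannot be told apart in bulk libraries.

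Upstream sequence is shown for EGR1, SPRY2 and PHLDA1, which fell in E8-cSGcm and whose windows hold at least 1 of the motifs searched. SPRY4 and DUSP6 fell there as well, but their windows hold none of these motifs, and SPRY1, never called, also held matches. The choice thus does not show that falling members share sites. Windows of 250 bases before an annotated start were taken from RefSeq on GRCh38.p14 and were found for 6 of 10 members, EGR1, SPRY1, SPRY2, SPRY4, DUSP6 and PHLDA1. Letters in capitals mark matches on either strand to the CArG box (bound by serum response factor), the ETS core CCGGAA, the AP-1 site TGANTCA, the CRE TGACGTCA or the EGR site GCGGGGGCG, and no match overlapped another. The EGR1 window, chr5:138465229-138465478 on the plus strand, the first SPRY2 window, chr13:80341127-80341376 on the minus strand, and the PHLDA1 window, chr12:76031777-76032026 on the minus strand, read 5′ to 3′ as follows.
EGR1: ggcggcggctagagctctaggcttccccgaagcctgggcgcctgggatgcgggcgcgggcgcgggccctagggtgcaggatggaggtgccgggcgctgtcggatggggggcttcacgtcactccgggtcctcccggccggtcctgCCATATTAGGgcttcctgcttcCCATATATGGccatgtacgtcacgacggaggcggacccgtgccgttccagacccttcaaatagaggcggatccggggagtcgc
SPRY2: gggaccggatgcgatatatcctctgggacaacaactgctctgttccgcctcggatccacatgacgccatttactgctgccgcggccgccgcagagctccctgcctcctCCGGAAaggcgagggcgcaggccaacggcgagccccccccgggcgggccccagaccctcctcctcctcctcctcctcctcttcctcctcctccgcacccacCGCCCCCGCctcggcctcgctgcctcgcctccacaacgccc
PHLDA1: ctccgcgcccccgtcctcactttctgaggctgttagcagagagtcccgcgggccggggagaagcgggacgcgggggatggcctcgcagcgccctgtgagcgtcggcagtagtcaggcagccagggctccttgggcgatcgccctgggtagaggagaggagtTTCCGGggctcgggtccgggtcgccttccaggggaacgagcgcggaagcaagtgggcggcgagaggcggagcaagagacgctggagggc
EGR1 held 2 CArG boxes, at 105 to 96 and at 83 to 74 bases before the start, and 1.16% of 35116 RefSeq windows of this length hold at least 1. SPRY2 and PHLDA1 each held an ETS core, at 142 to 137 and at 89 to 84 bases before the start, as do 14.5% of all windows. SPRY2 held an EGR site at 41 to 33 bases, as do 4.72% of all windows. The second SPRY1 window also held an ETS core and an EGR site. The windows of SPRY4 and DUSP6 held none of the 5 motifs, of which the AP-1 site is found in 6.57% and the CRE in 1.65% of all windows. A match describes letters in a window and is not evidence of binding.

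Compared with control medium, the members moved in different directions in the 3 media. In E8-cSGcm 5 members fell and 0 rose, in E8-cDRGcm 2 fell and 1 rose, and in E15.5-mSGcm 4 fell and 1 rose. Calls required both a 1.5-fold change and an adjusted p under 0.05 in edgeR's quasi-likelihood test. Of all genes tested, 4.73% were called higher and 3.86% lower in E8-cSGcm, 9.81% and 10.9% in E8-cDRGcm, and 6.65% and 7.27% in E15.5-mSGcm. The median log2 fold change over the 10 members was -0.52 in E8-cSGcm, -0.26 in E8-cDRGcm and -0.3 in E15.5-mSGcm, beside 0.01, 0.006 and -0.015 over all genes tested. By adjusted p alone, 6 members passed in E8-cSGcm, 8 in E8-cDRGcm (4 in each direction) and 8 in E15.5-mSGcm (1 higher and 7 lower), where 31.3%, 49.5% and 37.8% of all genes did.

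**Figure D1:**
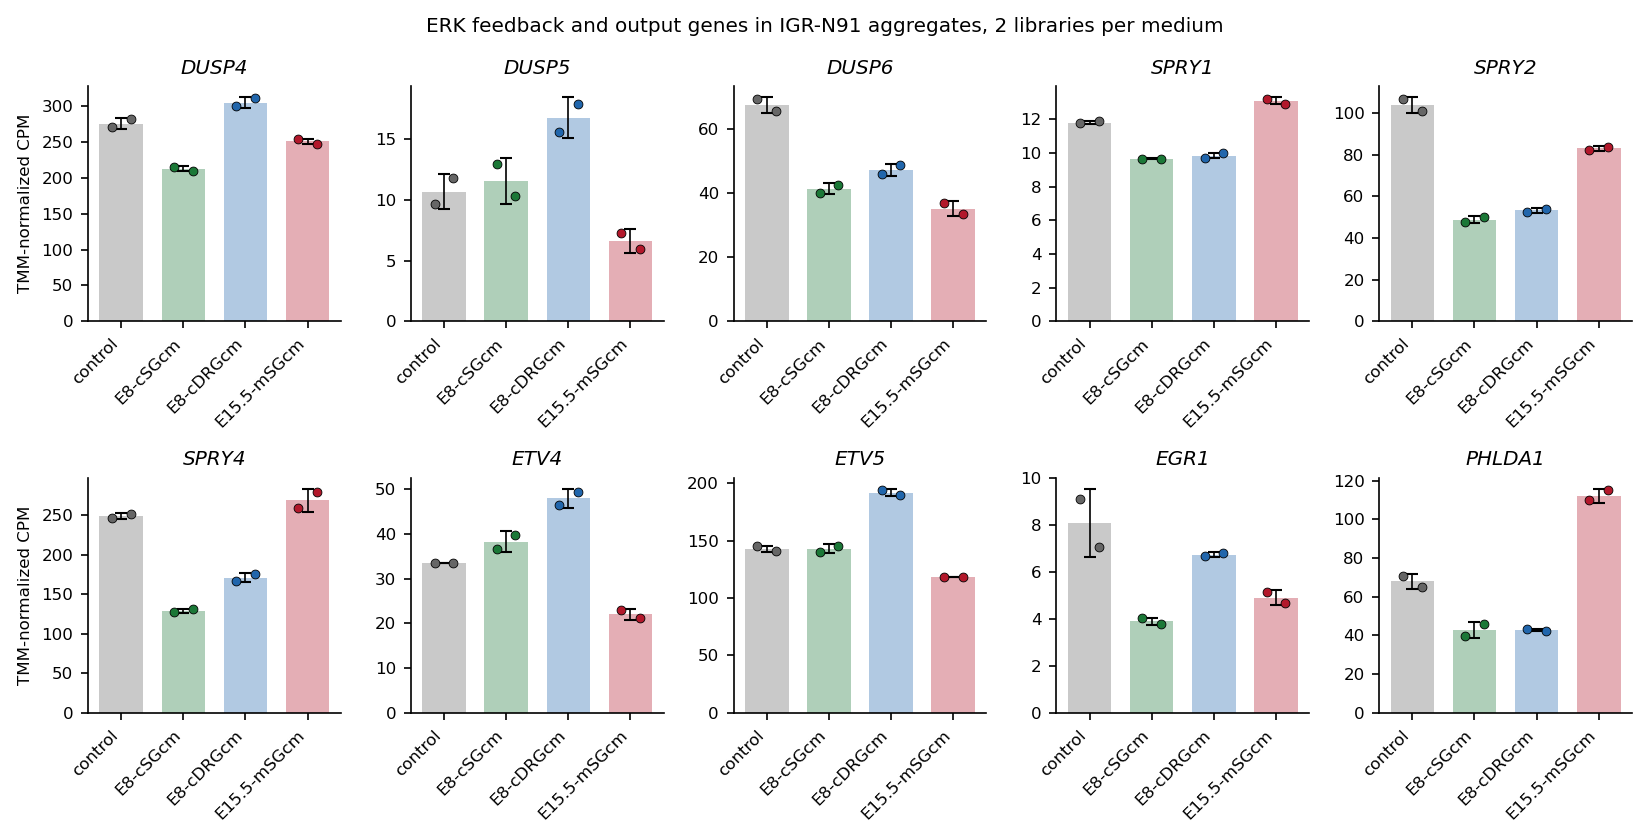
Level of each member in every library, as TMM-normalized CPM on a linear axis that starts at 0 in each panel, for control, E8-cSGcm, E8-cDRGcm and E15.5-mSGcm. Points are the 2 libraries of a group, bars their mean and error bars the SD. The PHLDA1 libraries of E15.5-mSGcm, at 110.0 and 115 CPM, lie above control and those of the chick media, at 39.9 to 45.9 CPM, below it.

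Scaled to transcript length, the members spanned a wide range in control medium. DUSP4 and SPRY4 had the highest levels, at 38.0 ± 1.12 and 38.0 ± 0.561 RPKM (CPM per kilobase of exonic length, mean ± SD, n = 2), followed by SPRY2 at 32.4 ± 1.16, ETV5 at 24.8 ± 0.434 and DUSP6 at 17.5 ± 0.642 RPKM. PHLDA1 stood at 11.5 ± 0.646, ETV4 at 9.53 ± 0.00969, DUSP5 at 4.24 ± 0.575, SPRY1 at 2.99 ± 0.0228 and EGR1 at 2.57 ± 0.465 RPKM. EGR1, the lowest, had 40 to 119 counts per library, and its values carry the widest error beside those of DUSP5.

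SPRY2 (ENSG00000136158, chromosome 13, 80335976 to 80341126, GRCh38.p14) was at 107 and 101 CPM in control, 47.9 and 50.0 in E8-cSGcm, 52.5 and 54.1 in E8-cDRGcm and 82.2 and 84.0 in E15.5-mSGcm. No group overlapped another, and both chick media lay near one another. SPRY2 fell by 1.09 on the log2 scale in E8-cSGcm (SE 0.064, adjusted p = 3.86e-16 in edgeR's quasi-likelihood test) and by 0.96 in E8-cDRGcm (SE 0.0632, adjusted p = 1.56e-15). In E15.5-mSGcm the log2 change was -0.32 (SE 0.0637, adjusted p = 9.99e-05), which passed the p but not the fold. In the order of levels, E8-cDRGcm and E8-cSGcm were the only neighbours of SPRY2 not past the adjusted p (difference 0.12, 95% interval -0.02 to 0.26).

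SPRY4 (ENSG00000187678, chromosome 5, 142310430 to 142325021) was at 247 and 252 CPM in control, 128 and 131 in E8-cSGcm, 167 and 175 in E8-cDRGcm and 259 and 279 in E15.5-mSGcm. The chick media were low, and the mouse medium was level with or above control. SPRY4 fell in E8-cSGcm, with a log2 change of -0.95 (SE 0.0527, adjusted p = 7.65e-17 in edgeR's quasi-likelihood test). In E8-cDRGcm the log2 change was -0.55 (SE 0.0515, adjusted p = 2.55e-11), short of the fold, and in E15.5-mSGcm it was 0.11 with a 95% interval of 0.01 to 0.22 (adjusted p = 0.0905). E15.5-mSGcm and control were its only neighbours not past the adjusted p.

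SPRY1 (ENSG00000164056, chromosome 4, 123396795 to 123403760) was at 11.8 and 11.9 CPM in control, 9.62 and 9.66 in E8-cSGcm, 9.72 and 9.96 in E8-cDRGcm and 13.2 and 12.9 in E15.5-mSGcm. Its groups did not overlap, but no neighbours in the order of levels passed the adjusted p. Against control its log2 changes were -0.3 (95% interval -0.57 to -0.03), -0.27 (-0.53 to 0.0) and 0.14 (-0.14 to 0.42) in E8-cSGcm, E8-cDRGcm and E15.5-mSGcm. Between media that were not neighbours, E15.5-mSGcm was above E8-cSGcm by 0.44 (adjusted p = 0.0115 in edgeR's quasi-likelihood test), short of the fold. The chick media thus had the lower values for SPRY1, SPRY2 and SPRY4, of which SPRY2 was called in both chick media and SPRY4 in E8-cSGcm. SPRY3, the remaining Sprouty gene and no member, was at 1.73 CPM in control and 2.51, 1.11 and 1.41 CPM in E8-cSGcm, E8-cDRGcm and E15.5-mSGcm, with no call.

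DUSP6 (ENSG00000139318, chromosome 12, 89347235 to 89352501), a cytoplasmic phosphatase selective for ERK, was at 69.2 and 65.7 CPM in control, 40.0 and 42.5 in E8-cSGcm, 45.8 and 48.6 in E8-cDRGcm and 36.8 and 33.4 in E15.5-mSGcm. Every library of every conditioned medium lay below both control libraries. DUSP6 fell by 0.71 on the log2 scale in E8-cSGcm (SE 0.0729, adjusted p = 8.95e-10 in edgeR's quasi-likelihood test) and by 0.95 in E15.5-mSGcm (SE 0.0813, adjusted p = 5.18e-12). In E8-cDRGcm the log2 change was -0.51 (SE 0.0715, adjusted p = 1.62e-07), short of the fold. E8-cDRGcm and E8-cSGcm were the neighbours not past the adjusted p (difference 0.19, adjusted p = 0.052). A long non-coding gene on the opposite strand shares exonic bases with DUSP6 and had 1 to 6 counts.

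DUSP4 and DUSP5 act on ERK in the nucleus. DUSP4 (ENSG00000120875) was at 271 and 282 CPM in control, 215 and 210.0 in E8-cSGcm, 300.0 and 311 in E8-cDRGcm and 254 and 248 in E15.5-mSGcm. Its groups did not overlap and all neighbours passed the adjusted p, but no comparison with control reached the fold. The log2 change of DUSP4 was -0.38 (SE 0.0492, adjusted p = 1.28e-07 in edgeR's quasi-likelihood test) in E8-cSGcm, 0.14 (SE 0.0484, adjusted p = 0.0125) in E8-cDRGcm and -0.14 (SE 0.0501, adjusted p = 0.0265) in E15.5-mSGcm.

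DUSP5 (ENSG00000138166, chromosome 10, 110497907 to 110511533) was at 9.71 and 11.8 CPM in control, 13.0 and 10.3 in E8-cSGcm, 15.6 and 17.9 in E8-cDRGcm and 7.3 and 5.94 in E15.5-mSGcm. The E8-cSGcm libraries overlapped control, those of E8-cDRGcm lay above and those of E15.5-mSGcm below. DUSP5 rose by 0.63 on the log2 scale in E8-cDRGcm (SE 0.134, adjusted p = 1.50e-04 in edgeR's quasi-likelihood test) and fell by 0.71 in E15.5-mSGcm (SE 0.18, adjusted p = 0.00171). The rise rested on single libraries for its fold, being 0.51 without control replicate 1 and 0.53 without E8-cDRGcm replicate 2. The fall was -0.57 without control replicate 2 and -0.57 without E15.5-mSGcm replicate 2. In E8-cSGcm the log2 change was 0.1 (95% interval -0.19 to 0.39).

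**Figure D2:**
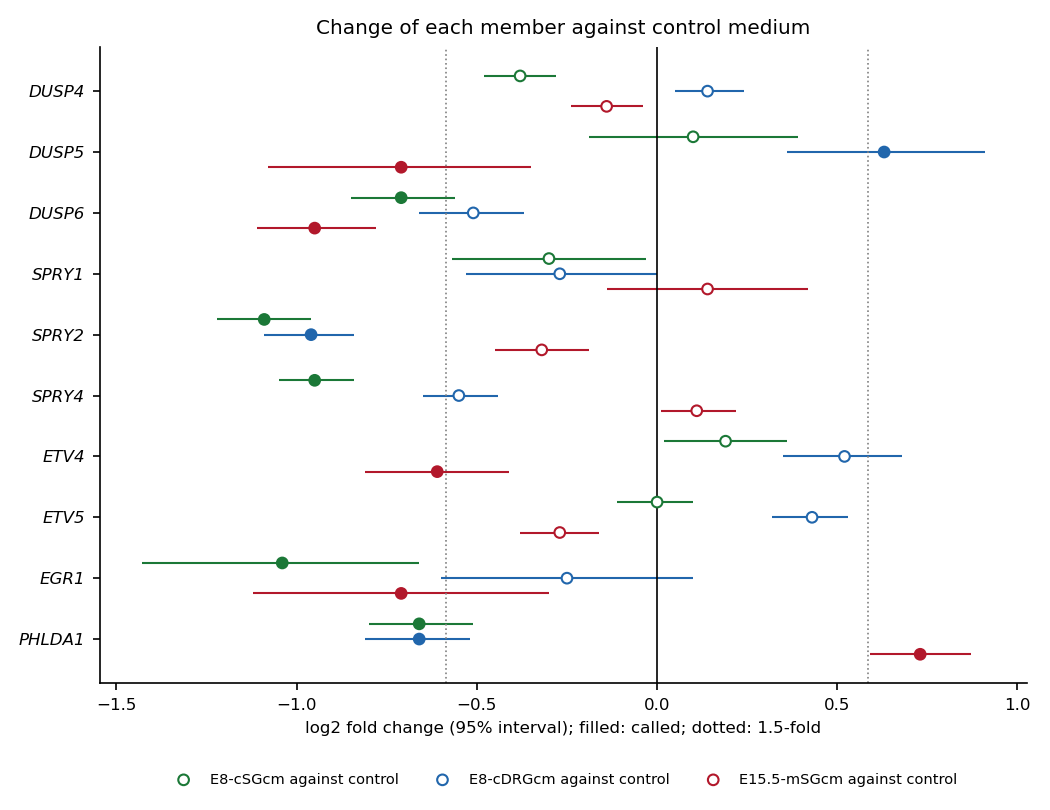
Log2 fold change of each member against control medium on the x axis with its 95% interval, for E8-cSGcm (green), E8-cDRGcm (blue) and E15.5-mSGcm (red), with filled points for called changes and dotted lines at a fold of 1.5. SPRY2 lies farthest left in both chick media, at -1.09 and -0.96, DUSP6 lies left of 0 in all 3, and PHLDA1 changes side, from -0.66 in both chick media to 0.73 in E15.5-mSGcm.

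ETV4 (ENSG00000175832, chromosome 17, 43527846 to 43546340) was at 33.5 and 33.5 CPM in control, 36.6 and 39.8 in E8-cSGcm, 46.4 and 49.4 in E8-cDRGcm and 22.9 and 21.1 in E15.5-mSGcm. Chick medium libraries lay above control and mouse medium libraries below it. ETV4 fell in E15.5-mSGcm, with a log2 change of -0.61 (SE 0.0987, adjusted p = 5.21e-06 in edgeR's quasi-likelihood test) that was -0.55 without E15.5-mSGcm replicate 2, short of the fold. In E8-cDRGcm the log2 change was 0.52 (SE 0.0797, adjusted p = 1.15e-06), also short of the fold, and in E8-cSGcm 0.19 (95% interval 0.02 to 0.36, adjusted p = 0.0742). ETV4 shares 68 of 3515 exonic bases with DHX8 on the opposite strand, which had 499 to 1013 counts, and since the strand setting of the counting is not stated, reads in that stretch cannot be assigned with certainty.

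ETV5 (ENSG00000244405, chromosome 3, 186046314 to 186109089) was at 145 and 141 CPM in control, 140.0 and 145 in E8-cSGcm, 194 and 190.0 in E8-cDRGcm and 118 and 118 in E15.5-mSGcm. E8-cSGcm overlapped control, E8-cDRGcm was high and E15.5-mSGcm low, the order that ETV4 and DUSP5 also had at its ends. No change against control reached the fold. The log2 change of ETV5 was 0.43 (SE 0.0517, adjusted p = 9.48e-09 in edgeR's quasi-likelihood test) in E8-cDRGcm and -0.27 (SE 0.056, adjusted p = 1.78e-04) in E15.5-mSGcm, while in E8-cSGcm its 95% interval was -0.11 to 0.1. ETV5 shares 164 of 5773 exonic bases with DGKG on the same strand, which had 142 to 311 counts.

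EGR1 (ENSG00000120738, chromosome 5, 138465479 to 138469303), whose window with 2 CArG boxes is shown above, was at 9.1 and 7.04 CPM in control, 4.01 and 3.78 in E8-cSGcm, 6.66 and 6.81 in E8-cDRGcm and 5.12 and 4.68 in E15.5-mSGcm. All conditioned media lay below control, the control libraries being the farthest apart. EGR1 fell by 1.04 on the log2 scale in E8-cSGcm (SE 0.19, adjusted p = 4.34e-05 in edgeR's quasi-likelihood test) and by 0.71 in E15.5-mSGcm (SE 0.203, adjusted p = 0.00527). The fall in E15.5-mSGcm rested on single libraries, with a log2 change of -0.53 (adjusted p = 0.095) without control replicate 1 and -0.65 (adjusted p = 0.0669) without E15.5-mSGcm replicate 2, and DESeq2 gave an adjusted p of 0.0679. In E8-cDRGcm the log2 change was -0.25 (95% interval -0.6 to 0.1). No neighbours in the order of EGR1 levels passed the adjusted p.

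PHLDA1 (ENSG00000139289, chromosome 12, 76025447 to 76031776) was at 70.6 and 65.2 CPM in control, 39.9 and 45.9 in E8-cSGcm, 43.1 and 42.5 in E8-cDRGcm and 110.0 and 115 in E15.5-mSGcm. It was the one member called in opposite directions by the chick and the mouse sympathetic medium. PHLDA1 fell by 0.66 on the log2 scale in E8-cSGcm (SE 0.0728, adjusted p = 4.71e-09 in edgeR's quasi-likelihood test), a change of -0.56 without E8-cSGcm replicate 1 and then short of the fold. It fell by 0.66 in E8-cDRGcm (SE 0.0727, adjusted p = 9.50e-10) and rose by 0.73 in E15.5-mSGcm (SE 0.0687, adjusted p = 4.76e-11). An antisense gene that shares exonic bases with PHLDA1 had 0 to 7 counts. The chick media overlapped one another (difference -0.01, 95% interval -0.17 to 0.15).

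The media were also compared with one another, which tests whether their effects differ. The comparisons with control above share the control libraries, whereas each of these compares 2 conditioned media directly. Between E8-cDRGcm and E8-cSGcm 1 member was called, EGR1, higher by 0.79 on the log2 scale in E8-cDRGcm (SE 0.197, adjusted p = 0.00202 in edgeR's quasi-likelihood test), where 7.49% of all genes were called in either direction. Of the other members, DUSP4, DUSP5, SPRY4, ETV4 and ETV5 were higher in E8-cDRGcm by 0.32 to 0.53 and passed the adjusted p alone. DUSP5 was called as well without E8-cSGcm replicate 1 (0.7) or without E8-cDRGcm replicate 1 (0.63).

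Between E15.5-mSGcm and E8-cSGcm 5 members were called, where 22.3% of all genes were. SPRY2, SPRY4 and PHLDA1 were higher in E15.5-mSGcm, by 0.76 (SE 0.0692), 1.06 (SE 0.0539) and 1.39 (SE 0.0729), and DUSP5 and ETV4 were lower, with differences of -0.81 (SE 0.179) and -0.8 (SE 0.0975). Between E15.5-mSGcm and E8-cDRGcm 6 members were called, where 26.2% of all genes were. SPRY2, SPRY4 and PHLDA1 were again higher in E15.5-mSGcm, by 0.64, 0.66 and 1.4, and DUSP5, ETV4 and ETV5 were lower, with differences of -1.35, -1.12 and -0.7. These 11 differences had adjusted p values of at most 2.40e-04. SPRY2, SPRY4 and PHLDA1 thus lay opposite DUSP5, ETV4 and ETV5 in the comparison of mouse with chick dorsal root medium. By adjusted p alone, SPRY1 was higher in the mouse medium (0.41) and DUSP4 and DUSP6 were lower (-0.28 and -0.43). Inhibitors of the pathway therefore lay on both sides.

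**Figure D3:**
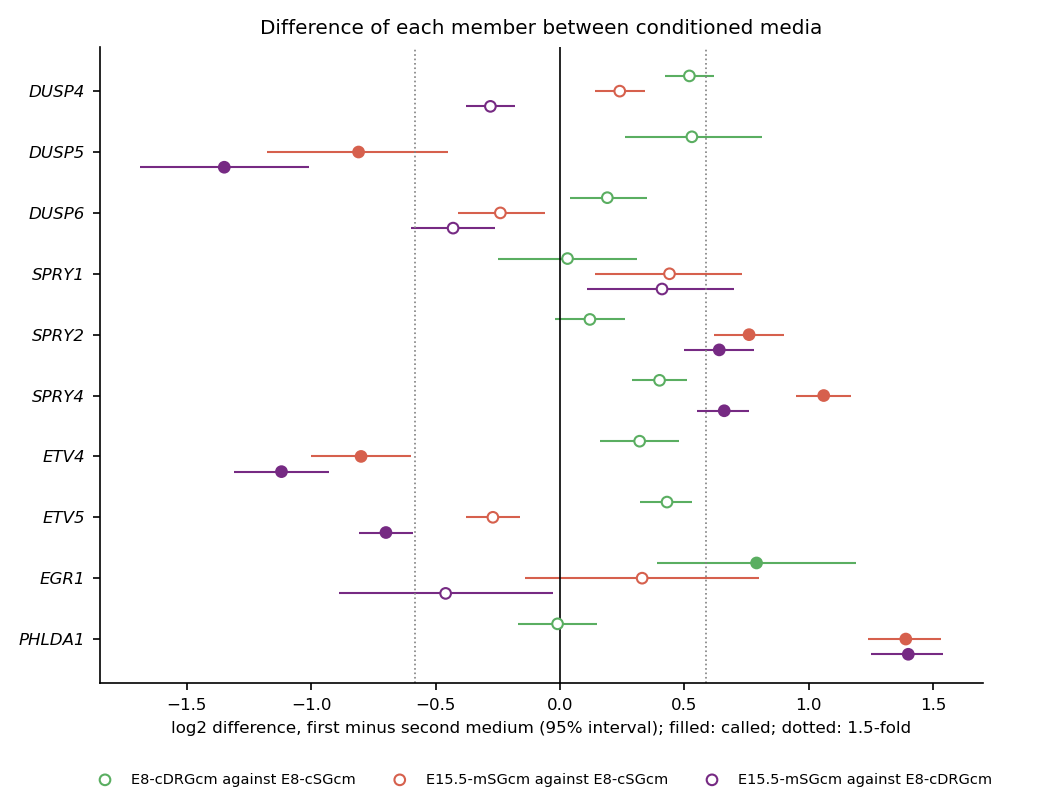
Log2 difference of each member between conditioned media, first minus second, on the x axis with its 95% interval, with filled points for called differences and dotted lines at a fold of 1.5. PHLDA1 lies at 1.39 and 1.4 and SPRY4 at 1.06 and 0.66 on the side of E15.5-mSGcm, whereas DUSP5 at -0.81 and -1.35 and ETV4 at -0.8 and -1.12 lie on the side of the chick media.

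Ratios of 2 members within a library do not depend on the scaling between libraries. The ratio of SPRY2 to ETV5 counts was 0.737 and 0.719 in control, 0.343 and 0.344 in E8-cSGcm, 0.27 and 0.285 in E8-cDRGcm and 0.695 and 0.709 in E15.5-mSGcm. The chick media were low in both libraries and the mouse medium lay just under control. The ratio of SPRY4 to ETV5 was 1.71 and 1.78 in control, 0.913 and 0.9 in E8-cSGcm, 0.857 and 0.921 in E8-cDRGcm and 2.19 and 2.36 in E15.5-mSGcm. The ratio of DUSP6 to DUSP4 was 0.256 and 0.233 in control, 0.186 and 0.202 in E8-cSGcm, 0.153 and 0.156 in E8-cDRGcm and 0.145 and 0.134 in E15.5-mSGcm, below control in each medium. The ratio of PHLDA1 to EGR1 was 7.76 and 9.26 in control, 9.96 and 12.1 in E8-cSGcm, 6.47 and 6.24 in E8-cDRGcm and 21.4 and 24.6 in E15.5-mSGcm. These ratios are descriptions of single libraries and were not tested. They restate the levels above for chosen pairs of members and add no separate support.

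**Figure D4:**
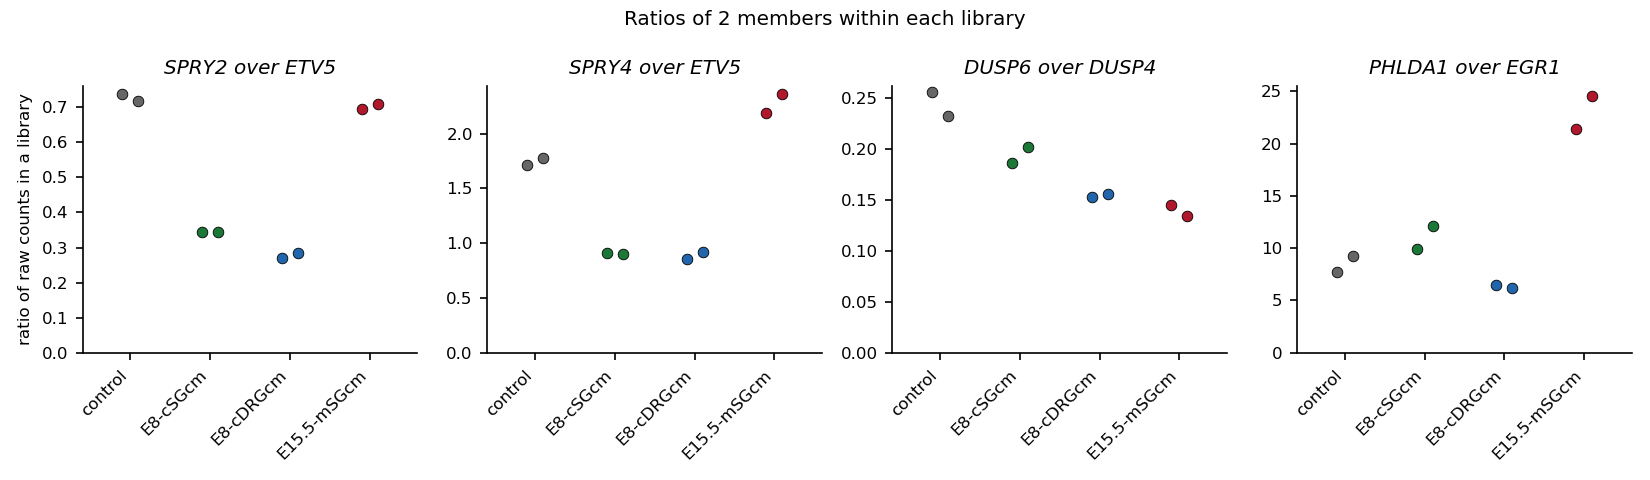
Ratio of the raw counts of 2 members within each library, on linear axes that start at 0, with 2 points per medium for the 2 libraries. SPRY2 over ETV5 is 0.27 to 0.344 in the chick media and 0.695 to 0.737 in control and E15.5-mSGcm, and PHLDA1 over EGR1 is 21.4 and 24.6 in E15.5-mSGcm and at most 12.1 elsewhere.

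The other genes of the pathway were taken from 4 lists. Over all genes tested, 4.73% rose and 3.86% fell in E8-cSGcm, 9.81% and 10.9% in E8-cDRGcm, and 6.65% and 7.27% in E15.5-mSGcm. Of 25 tested genes of the cascade core, from adaptors to kinases, 1 rose and 0 fell in E8-cSGcm, 2 rose and 0 fell in E8-cDRGcm, and 1 rose and 1 fell in E15.5-mSGcm. MAP2K1, which encodes the kinase MEK1 that activates ERK, rose in E8-cDRGcm from 54.0 and 48.8 CPM in control to 85.4 and 82.5 CPM (log2 change 0.71, adjusted p = 2.74e-11 in edgeR's quasi-likelihood test). In E15.5-mSGcm the adaptor GAB1 rose by 0.61, a change short of the fold without control replicate 1 (0.55) or E15.5-mSGcm replicate 1 (0.58), and the ERK-activated kinase RPS6KA2 had a log2 change of -0.8. The call in E8-cSGcm and the second in E8-cDRGcm were RRAS, a RAS-related GTPase with 7 counts in each control library. RRAS was not called without control replicate 2 (log2 changes 1.5 and 1.41), without E8-cSGcm replicate 2 (1.36) or without E8-cDRGcm replicate 1 (1.22). Of 19 other tested feedback and restraint genes, 0 rose and 1 fell in E8-cSGcm, 2 rose and 1 fell in E8-cDRGcm, and 2 rose and 1 fell in E15.5-mSGcm. The gene that fell was DUSP7 each time, an ERK phosphatase like DUSP6, at 158 and 155 CPM in control and 84.7 to 104 CPM in the 3 media. CBL, a ubiquitin ligase for receptors, and PEA15, which binds ERK, rose in E8-cDRGcm by 0.63 and 0.76. DUSP1 and DUSP10, phosphatases that act on the stress kinases JNK and p38, rose in E15.5-mSGcm by 1.22 and 1.42.

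Of 25 tested genes of the list of other output and immediate-early genes, 3 rose and 3 fell in E8-cSGcm, 9 rose and 2 fell in E8-cDRGcm, and 2 rose and 1 fell in E15.5-mSGcm. In the same order, 4.73% of all tested genes rose and 3.86% fell, then 9.81% and 10.9%, then 6.65% and 7.27%. CCND1, EPHA2 and EPHA4 complete, with 7 of the members, a published MAPK activity score. CCND1, which encodes cyclin D1, was at 1400 and 1430 CPM in control, 564 and 573 in E8-cSGcm, 357 and 343 in E8-cDRGcm and 982 and 919 in E15.5-mSGcm. It fell in both chick media, with log2 changes of -1.32 and -2.02, and had a log2 change of -0.58 in E15.5-mSGcm, short of the fold. The ephrin receptor genes EPHA2 and EPHA4 rose in E8-cSGcm by 0.6 and 1.48 and in E8-cDRGcm by 0.67 and 1.05, but in E15.5-mSGcm they had log2 changes of 0.1 and 0.67 (adjusted p = 0.608 and 0.116 in edgeR's quasi-likelihood test). The call of EPHA2 in E8-cSGcm was lost without control replicate 1 (0.53) or E8-cSGcm replicate 2 (0.43), and that in E8-cDRGcm on thinning (0.5). ETV1, the third ETS factor of the family of ETV4 and ETV5, fell in both chick media, with log2 changes of -0.67 and -1.14. The nuclear receptor gene NR4A3 rose by 1.57 in E8-cSGcm and 2.46 in E8-cDRGcm and FOSL1, which encodes an AP-1 subunit, by 1.96 in E8-cDRGcm. The AP-1 genes JUN and JUNB rose in E15.5-mSGcm by 0.71 and 0.69, and JUN also passed the adjusted p alone in both chick media (0.48 and 0.3). ARC, an immediate-early gene of neurons, fell in E8-cSGcm and E15.5-mSGcm, with log2 changes of -0.64 and -0.88, and had a log2 change of -0.43 in E8-cDRGcm, short of the fold.

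Of 17 tested receptor tyrosine kinases, 3 rose and 1 fell in E8-cSGcm, 2 rose and 1 fell in E8-cDRGcm, and 5 rose and 6 fell in E15.5-mSGcm. The shares of all tested genes that rose and fell were 4.73% and 3.86%, 9.81% and 10.9%, and 6.65% and 7.27% in these media. MET, the receptor of hepatocyte growth factor, fell in all 3 media, with log2 changes of -0.72 in E8-cSGcm, -1.7 in E8-cDRGcm and -0.76 in E15.5-mSGcm, the first of which was -0.58 without control replicate 2. KIT, the receptor of stem cell factor, rose by 1.34 in E8-cSGcm, a call lost on thinning (0.97), and by 0.97 in E15.5-mSGcm. The call of KIT in E15.5-mSGcm rested on 23 and 22 counts against 22 and 17 in control. It was not kept without E15.5-mSGcm replicate 2. FGFR1 rose in E8-cDRGcm from 56.9 and 59.5 CPM to 101 and 98.5 CPM. PDGFRA, a receptor of platelet-derived growth factor that also stands among the fibroblast markers, was at 1.07 and 0.526 CPM in control and 8.58 and 11.1 CPM in E15.5-mSGcm. It rose by 3.65 on the log2 scale (SE 0.298, adjusted p = 1.40e-12 in edgeR's quasi-likelihood test), and of the other fibroblast markers DCN had 107 and 118 counts in E15.5-mSGcm against 36 and 42 in control, while COL1A1 had 249 and 249 against 1296 and 1716. In E15.5-mSGcm 4 of the 6 fibroblast markers, PDGFRA included, were called higher and 1 lower. The part of the fibroblast markers in the result of PDGFRA was not tested. ERBB3, also one of the glia markers, rose in E8-cDRGcm and E15.5-mSGcm by 1.76 and 1.72. FGFR4 rose by 0.97 in E8-cSGcm and fell in E15.5-mSGcm, with a log2 change of -1.27 that did not pass without control replicate 2 (-1.1) or E15.5-mSGcm replicate 2 (-0.9). Several genes of the lists, HRAS among them, are listed at 0 in all libraries, as is TUBB, a tubulin gene that dividing cells use, so that a listing at 0 does not show absence.

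**Figure D5:**
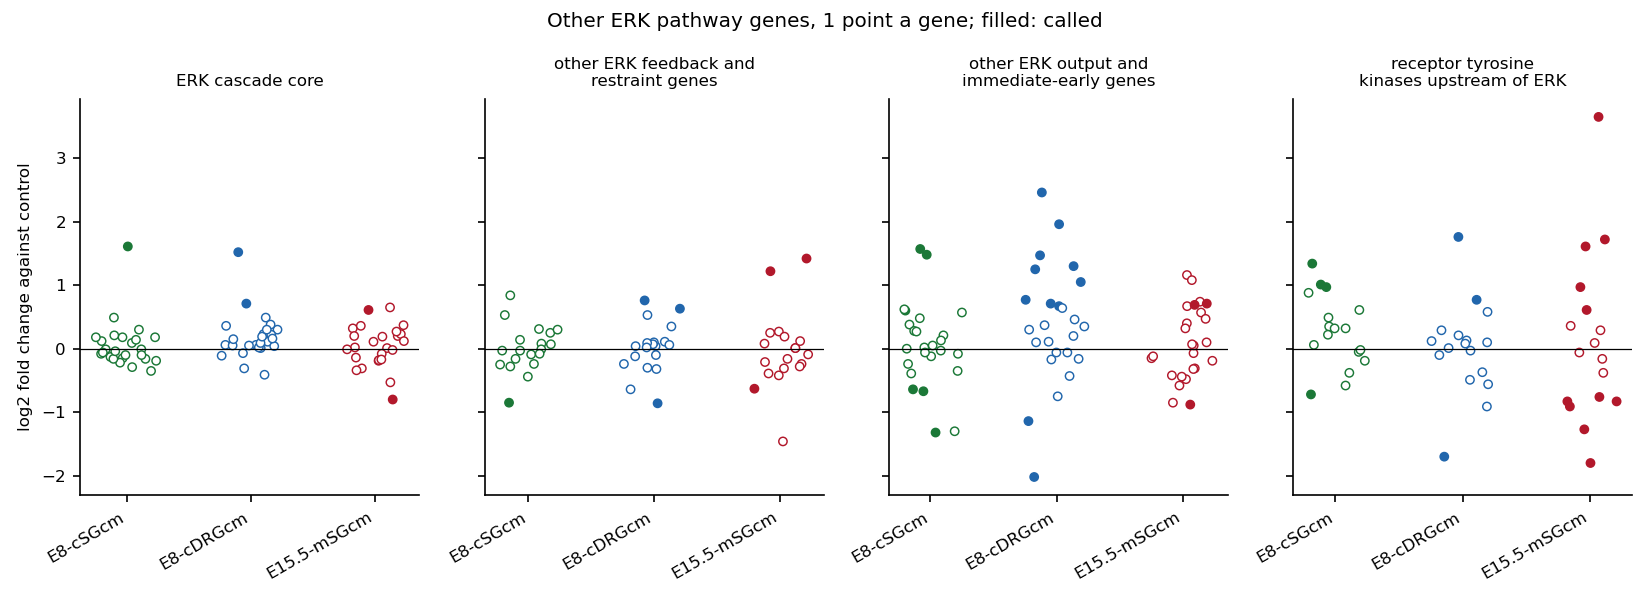
Log2 fold change against control of the other tested ERK pathway genes, 1 point a gene, by list and medium, with filled points for called genes. Most genes of the cascade core lie near 0, whereas the output list holds NR4A3 at 2.46 and CCND1 at -2.02 in E8-cDRGcm and the receptors hold PDGFRA at 3.65 in E15.5-mSGcm.

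For the 3 members with the widest range of group means, the genes whose pattern over the 8 libraries was closest were sought among 11154 genes with a mean of at least 5 CPM, by the root mean square difference of centred log2 CPM. For PHLDA1 these were STAG1 (0.109), CAB39L (0.116) and DDX39A (0.12). For DUSP5 they were PLEKHA2 (0.115), RRAS2P1 (0.131) and CYP27A1 (0.137). For ETV4 they were UBE2S (0.0459), GPC1 (0.0544) and CDK16 (0.0596). No other member was among these nearest genes.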

How the data were processed

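Raw counts per Ensembl gene were analysed as the authors deposited them, without normalization. The authors prepared 8 stranded total RNA libraries from 50 ng of RNA, sequenced single reads of 75 bp, and, per the labels, used bcl2fastq 2.17.1.14, cutadapt 1.9.1, TopHat2 2.1.0 and HTSeq 0.11.3. The labels name GRCh38 and the study's methods hg19, and the table holds no coordinates. Strand setting and annotation release are not given in the sources used here. The culture condition in the labels gave the groups. The libraries of a group differed beyond counting error (chi-square per gene 1.78 to 3.64). They were thus not copies of each other, but may still be technical duplicates of the same culture.

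Symbols were matched for 58611 of 60676 identifiers. Positions and upstream windows come from RefSeq (GRCh38.p14), and exonic lengths, used only for RPKM, from GENCODE 44 lifted to GRCh37. Counts were filtered by filterByExpr, scaled by TMM and fitted over all 8 libraries with edgeR 4.0.16 (robust quasi-likelihood, limma 3.58.1, R 4.3.3), with Benjamini-Hochberg adjustment over 16680 genes in each of 6 comparisons. An exact permutation of 2 against 2 libraries cannot go below p = 0.333 and was not used. The fit was tested on simulated data. Alternatives were DESeq2 1.42.0, RLE size factors, 2 other filters, only the libraries compared, adjusted p alone, a replicate block, thinning to the smallest total and each library left out. Figures used matplotlib 3.10.9.

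The members and lists were chosen with earlier results of these data known. Named genes are the members, CCND1, EPHA2 and EPHA4, the 2 highest and 2 lowest called genes of each list per medium, and the 3 nearest in pattern to the 3 members of widest range. TUBB, HRAS, SPRY3, DHX8, DGKG and the markers named were chosen after their values were seen. No sequence is shown for DUSP4, and some genes that the rule names are not reported here.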

Additional observations from a re-analysis of the deposited data

Results flagged for a closer look

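Members with opposite directions in 2 conditioned media, and a called difference between these media in edgeR's quasi-likelihood test, were singled out. PHLDA1 was higher in E15.5-mSGcm than in E8-cSGcm by 1.39 on the log2 scale (adjusted p = 3.03e-18) and than in E8-cDRGcm by 1.4 (adjusted p = 1.21e-18), with changes against control of 0.73 in the mouse medium and -0.66 in each chick medium. DUSP5 differed by -1.35 between E15.5-mSGcm and E8-cDRGcm (adjusted p = 1.31e-08), with changes of -0.71 and 0.63 against control. ETV4 differed by -1.12 between the same media (adjusted p = 9.45e-13), with changes of -0.61 and 0.52. ETV5 differed by -0.7 (adjusted p = 1.81e-13), with changes of -0.27 and 0.43, neither of which reached the fold against control. In all 5 differences both libraries of one medium lay above both libraries of the other. Since these were singled out for a called difference, and uncalled members such as SPRY1 were also separated, this adds no support. Groups of 2 libraries are too small to look for outlying libraries.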

How the results depend on the processing

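Of 900 recomputed member fold changes, 876 kept their direction and side of the threshold, 12 lost and 4 gained a call, and 8 changed sign, none of them called in either fit. These were DUSP5 in E8-cSGcm (-0.02 without control replicate 1 and -0.07 without E8-cSGcm replicate 1), ETV5 in E8-cSGcm (0.01 with genes of at least 1 count, and 0.02, 0.03 and 0.0 without control replicate 1, E8-cSGcm replicate 1 or E8-cDRGcm replicate 2) and PHLDA1 between the chick media (0.1 and 0.0 without E8-cSGcm or E8-cDRGcm replicate 2). With each library left out, these 3 values ran from -0.07 to 0.27, -0.03 to 0.03 and -0.1 to 0.1. By adjusted p alone, members called numbered 8 in E8-cDRGcm and 8 in E15.5-mSGcm against control, 6 between the chick media and 9 between E15.5-mSGcm and E8-cSGcm. Among the 16680 genes tested, 8261, 6305, 5037 and 8304 passed in these comparisons. With each library left out, the counts ran from 4 to 5 in E8-cSGcm, 2 to 3 in E8-cDRGcm, 2 to 5 in E15.5-mSGcm (2 without E15.5-mSGcm replicate 2) and 1 to 2 between the chick media, and stayed at 5 and 6 in the other comparisons. Thinning left DUSP5 in E8-cDRGcm at 0.56 and ETV4 in E15.5-mSGcm at -0.57, short of the fold, and raised ETV4 in E8-cDRGcm to 0.61 and EGR1 between E15.5-mSGcm and E8-cDRGcm to -0.63, both then called. With all genes of at least 1 count, SPRY2 between E15.5-mSGcm and E8-cDRGcm was 0.58. The cause of these shifts was not tested.

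For the lists, calls by adjusted p alone are given in the order E8-cSGcm, E8-cDRGcm and E15.5-mSGcm. The cascade core had 7, 13 and 13 calls of 25 tested genes, and other feedback genes 4, 7 and 6 of 19. Other output genes had 10, 16 and 12 of 25, and receptors 9, 8 and 14 of 17. Over all tested genes the shares were 31.3%, 49.5% and 37.8%. With each library left out, the core had 0 to 1, 1 to 2 and 1 to 3 calls, output genes in E15.5-mSGcm 3 to 6, and receptors 4 to 6 in E8-cDRGcm and 7 to 11 in E15.5-mSGcm. The core had 0 and 1 calls in the chick media with 10 counts required in every library, with thinning and with DESeq2, and 1 in E15.5-mSGcm with genes of at least 1 count. Thinning gave 6 output genes in E15.5-mSGcm and 2 receptors in E8-cSGcm, and 10 counts in every library 2 receptors in E8-cSGcm and 6 in E15.5-mSGcm. Over all genes, DESeq2 called 851 against 1433 in E8-cSGcm and 696 against 1249 between the chick media.

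Replicate numbers did not pair the libraries (correlations of deviations -0.0437 to 0.042), and a fit with the replicate block called 5, 3 and 5 members against control and 1, 5 and 6 between media, as without it.

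Depth limits EGR1, DUSP5 and SPRY1 most, with 40 to 245 counts per library.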
